A study of Homo sapiens with 4 samples.

Results

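The MEIS, PBX and PKNOX genes encode transcription factors of the TALE class of homeodomain proteins, which bind DNA together with HOX proteins. H3K27Ac occupancy was examined here at 8 of them, MEIS1, MEIS2, MEIS3, PBX2, PBX3, PBX4, PKNOX1 and PKNOX2, out of 20037 protein-coding genes annotated in GRCh38.p14. They were chosen by name, as members of these gene families, and no measured value entered the choice. MOLM13, an established human AML line carrying an MLL1 rearrangement (MLL1-r), was profiled by H3K27Ac ChIPmentation, where Tn5 transposase puts the sequencing adapters onto antibody-bound chromatin. There was 1 control library, whose label names no treatment although the treatment description has a DMSO arm, and 1 library of the same cell line exposed for 16 h to 500 nM of SNDX-50469. SNDX-50469 is an inhibitor of the binding of Menin to MLL1 (MI). The 2 input libraries of these conditions were not analysed here.

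H3K27Ac is an acetyl mark on histone H3 that is found at active promoters and enhancers. PBX proteins bind DNA as dimers with HOX proteins, and MEIS and PKNOX proteins join them through an interaction domain at their amino-terminal side. In AML with MLL1-r, MEIS1 and PBX3 are known as cofactors of HOXA9 and as targets of the MLL1 fusion protein.

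The authors deposited 1 list of broad H3K27Ac peaks per library. The control list held 245875 peaks over 224 Mb and the list following SNDX-50469 treatment held 54061 peaks over 29.4 Mb. Over the whole genome, 8.24% of control peaks shared at least 1 bp with the list of treated cells, and 9.71% of the positions covered in control were covered in both. Read totals are not given. A background level was inferred from the weakest peak of each list, 0.877 fragments per position in control and 0.735 after treatment. It is at best an indirect measure of depth, because it is not known whether an input library entered the peak calling. The weakest peaks of the lists had a −log10 p of 2.68 in control and 3.93 after treatment, so the lists were not cut at the same strength. The parts of these differences in the results below were not tested. Among 6 genes of the monocytic AML cell (SPI1, CD33, LYZ, FLT3, CSF1R and HOXA9), all 6 carried peaks in both libraries, with 7766 to 79074 bp in control. Among 5 genes that mark other cell types, 3 carried control peaks (CD3E, GATA1 and COL1A1, the longest being 13986 bp at COL1A1), none carried a treated peak, and EPCAM and ALB were at 0 in both lists.

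In what follows, a control peak is kept when it shares at least 1 bp with a peak of treated cells and is otherwise lost. A gene's kept share is the part of its control covered length, in percent, that treated peaks also covered. It was taken over the gene body and 5 kb to either side unless 100 kb is named. A gene is called lower when its covered length after treatment was at most 50% of that in control. Each condition has 1 library, so differences were not checked against replicates and carry no p-value. Intervals for shares of peaks are Wilson 95% intervals, which cover counting error only, and neighbouring peaks of 1 gene are not independent.

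The promoters of 5 members are printed first, because H3K27Ac at these places separated the members. Each is a RefSeq window of 300 bases in GRCh38.p14, from 250 bases before to 50 bases after a gene's start, read along the gene's strand, with each CG dinucleotide in capitals. The windows lie at chr2:66434875-66435174 (plus strand) for MEIS1, chr15:37099057-37099356 (minus strand) for MEIS2, chr6:32190153-32190452 (minus strand) for PBX2, chr9:125747933-125748232 (plus strand) for PBX3 and chr21:42974312-42974611 (plus strand) for PKNOX1.
MEIS1: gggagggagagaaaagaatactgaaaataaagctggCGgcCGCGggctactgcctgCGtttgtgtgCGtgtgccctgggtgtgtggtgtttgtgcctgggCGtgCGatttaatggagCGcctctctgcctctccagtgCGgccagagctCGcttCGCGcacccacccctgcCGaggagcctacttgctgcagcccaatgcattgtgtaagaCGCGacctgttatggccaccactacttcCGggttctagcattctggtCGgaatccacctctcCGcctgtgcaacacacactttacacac
MEIS2: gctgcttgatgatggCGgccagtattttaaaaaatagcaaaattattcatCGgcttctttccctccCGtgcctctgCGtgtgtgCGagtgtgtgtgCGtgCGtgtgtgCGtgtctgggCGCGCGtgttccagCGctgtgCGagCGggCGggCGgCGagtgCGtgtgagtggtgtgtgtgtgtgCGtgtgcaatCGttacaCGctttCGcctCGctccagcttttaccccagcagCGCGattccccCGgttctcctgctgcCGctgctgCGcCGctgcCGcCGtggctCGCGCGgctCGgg
PBX2: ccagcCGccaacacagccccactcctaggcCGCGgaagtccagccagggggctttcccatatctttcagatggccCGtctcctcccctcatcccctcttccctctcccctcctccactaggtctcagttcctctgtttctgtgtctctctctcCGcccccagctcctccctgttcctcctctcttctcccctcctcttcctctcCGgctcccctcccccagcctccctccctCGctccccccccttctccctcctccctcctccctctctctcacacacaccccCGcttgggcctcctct
PBX3: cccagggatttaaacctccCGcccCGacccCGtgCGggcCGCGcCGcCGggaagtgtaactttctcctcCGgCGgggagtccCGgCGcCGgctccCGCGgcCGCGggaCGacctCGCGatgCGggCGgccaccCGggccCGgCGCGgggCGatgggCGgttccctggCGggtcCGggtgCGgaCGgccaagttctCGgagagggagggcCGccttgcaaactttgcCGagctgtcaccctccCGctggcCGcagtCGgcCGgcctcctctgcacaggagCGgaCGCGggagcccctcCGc
PKNOX1: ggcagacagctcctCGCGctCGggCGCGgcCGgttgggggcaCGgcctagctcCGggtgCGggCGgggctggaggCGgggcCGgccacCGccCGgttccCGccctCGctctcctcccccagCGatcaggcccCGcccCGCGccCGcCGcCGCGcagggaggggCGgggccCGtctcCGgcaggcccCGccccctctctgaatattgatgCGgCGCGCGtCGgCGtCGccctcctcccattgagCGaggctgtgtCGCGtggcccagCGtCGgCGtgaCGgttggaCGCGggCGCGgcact

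The MEIS1 window was covered over all 300 bases by a control peak and over 0 bases after treatment, where the nearest treated peak lay 1901 bp away. Both annotated MEIS2 windows, the one shown and a second at chr15:37098647-37098946, went from 300 bases to 0, with the nearest treated peaks 896 and 1306 bp away. The PBX3 window, in contrast, was covered over all 300 bases in both libraries. At PBX2 the covered part was 168 bases in control and 205 after treatment. PKNOX1 had 0 bases of its window covered in control and 66 after treatment, because the control peak began just past the window. The MEIS1 and MEIS2 windows were thus the ones that lost all of their coverage, and those of PBX3, PBX2 and PKNOX1 carried a peak of treated cells. Both MEIS2 windows lie inside the annotated gene, however, and a treated peak lay nearer to its outermost 5′ end, 83 to 474 bp into the gene.

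The 2 windows of MEIS3 and the 1 window of PBX4 had no peak in either list. Of 5 member windows with control coverage, 3 had none after treatment. Among 10953 such windows of all protein-coding genes, 56.9% had none after treatment, so 3 of 5 is near the background. The printed windows held 18 CG dinucleotides at MEIS1, 35 at MEIS2, 8 at PBX2, 43 at PBX3 and 46 at PKNOX1, against a median of 21 over 22199 windows of all genes. Among all windows covered in control, the median was 27 CG where treated cells had coverage and 24 where they had none. Of the printed windows, PBX2 with 8 CG carried a treated peak, which also lies over the neighbouring gene GPSM3, and MEIS2 with 35 carried none. Whether the number of CG has a part in what was kept was not tested. The motif TGACAG, the core that MEIS and PKNOX proteins prefer, was searched on both strands, as was TGATTGAT, a joint PBX and HOX motif. TGACAG was found once, in the PBX3 window on the strand opposite to the one printed, and TGATTGAT was found in none of the 9 member windows. Of all windows, 14.8% held TGACAG and 0.369% held TGATTGAT, and a match of letters is a description, not a bound site.

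Across the family, H3K27Ac in control was concentrated on MEIS1 and PBX3, which held 88.7% of the 234154 bp that control peaks covered at the 8 genes. Following SNDX-50469 treatment 16796 bp were covered at the family, and 47.7% of this was at MEIS1 and PBX3. By number of peaks, 13 of 189 control peaks of the family were kept (6.88%, 4.06 to 11.4). The share over all control peaks, 8.24%, lies inside that interval, so the family was near the background. Of the 25 treated peaks 4 touched no control peak, where 19.2 to 49.2% of all treated peaks on the members' chromosomes touched none. All 8 members had less covered length after treatment, as it was at 98.1% of the 15634 protein-coding genes with control coverage. By the call of at least 2 times, 7 of 8 members were lower, and PBX2 was the exception at 1.99 times. That call was passed by 93.7% of all genes, so 7 of 8 is no more than the background. At least 4 times lower were 6 of 8 members, against 79.7% of all genes. MEIS3, PBX4 and PKNOX2 kept none of their control positions, which was so at 44.8% of all genes.

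**Figure D1:**
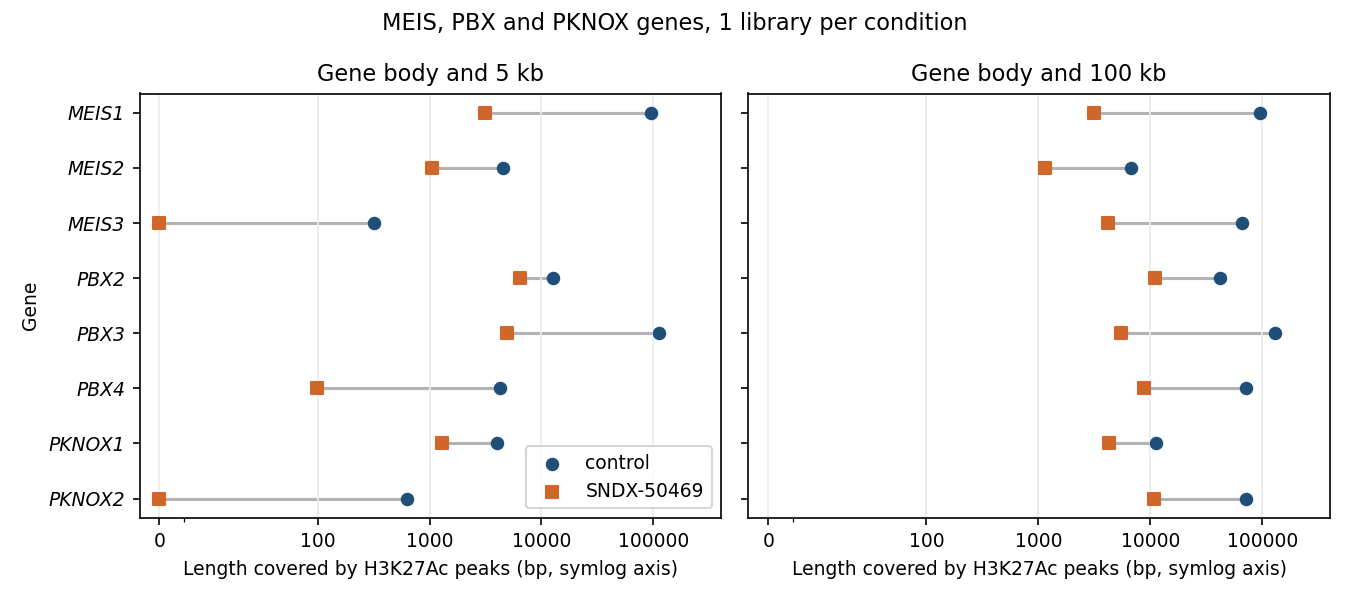
Length in bp covered by H3K27Ac peaks at each member in control (circles) and after SNDX-50469 (squares), over the gene body with 5 kb (left) and 100 kb (right) on both sides, on a symlog axis that includes 0. MEIS1 and PBX3 have the longest control lengths at 5 kb, 95092 and 112589 bp, and MEIS3 and PKNOX2 are at 0 after treatment there.

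The summed control length of the 8 members was kept at 6.74%, against 11.6% over all genes with control coverage, while the median over members was 3.69% against 2.37% over all genes. The sum lay below the value for all genes and the median above it, so no direction relative to other genes follows. With the weakest control peaks removed until the lists were equal in covered length, 2 members (MEIS1 and PBX2) still had control peaks. Of these 2, only MEIS1 was called lower, and the summed kept share was 33.1%. Of the 3447 genes with control coverage left in that setting, 38.3% were called lower.

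**Figure D2:**
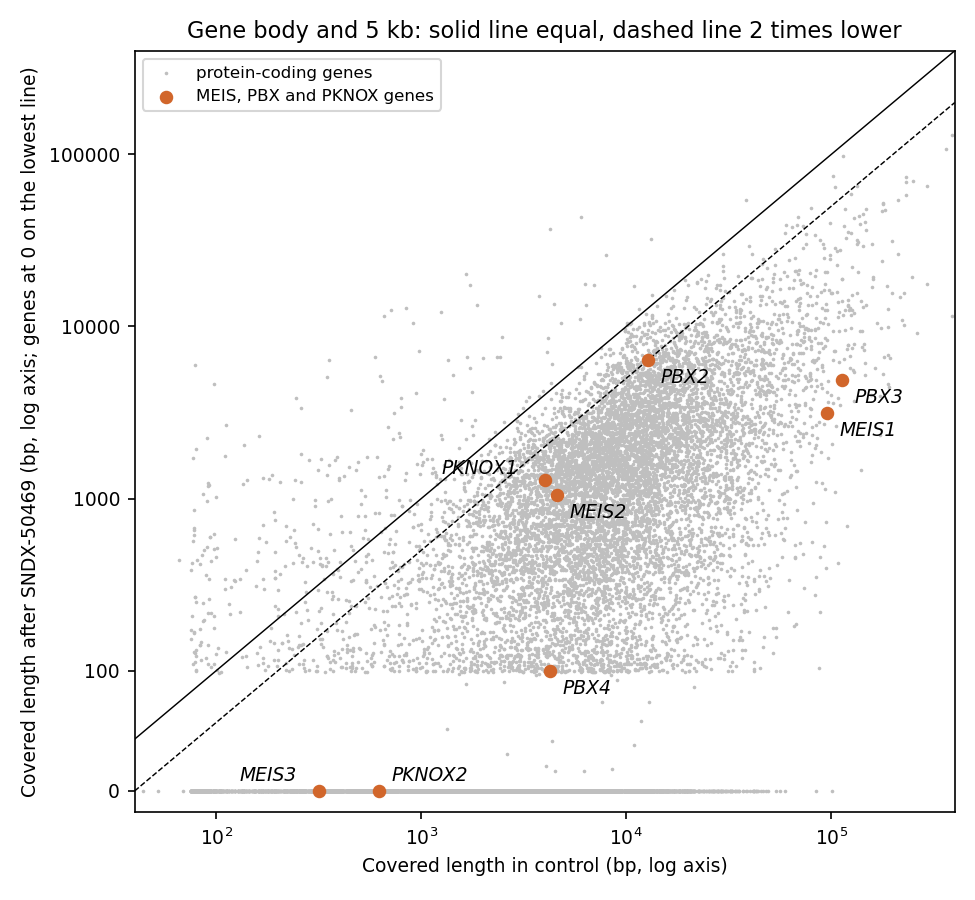
Covered length after SNDX-50469 against covered length in control for 15634 protein-coding genes with control coverage (grey) and the 8 members (orange), gene body and 5 kb, log axes with genes at 0 drawn on the lowest line. PBX2 lies next to the dashed line that marks a length 2 times lower, and MEIS1 and PBX3 lie at the far right, well below that line.

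MEIS1, the HOXA9 cofactor of this family best known from leukemia, lies on the plus strand of chromosome 2 from 66435125 to 66573869 (GRCh38). In control, 58 peaks covered 95092 bp, or 63.9% of the gene and its 5 kb, which placed it at rank 147 of 15634 genes by covered length. After treatment 5 peaks covered 3133 bp, or 2.11% of the same window, a length 30.4 times lower. Of the 58 control peaks 2 were kept (3.45%, 0.951 to 11.7) and 56 were lost. On chromosome 2 as a whole 5.03% of control peaks were kept, a value inside that interval. By length MEIS1 kept 3.19%, and 52.1% of the genes with control coverage had a lower kept share, so MEIS1 lay near the middle of all genes. No peak of either list lay between 5 and 100 kb from the gene, and no other protein-coding gene lies within that distance, so the counts at 100 kb were the same.

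The first kept peak of MEIS1 was its strongest and widest, at chr2:66433853-66449752. This peak of 15900 bp began 1.27 kb before the annotated 5′ end, ran 14.6 kb into the gene, and had a fold of 8.01 over the control background, rank 1051 of 245875. After treatment 3 peaks lay inside it, at chr2:66437076-66438386, chr2:66444828-66445095 and chr2:66445574-66446889, and together they covered 18.2% of it. Of the treated peaks of MEIS1, these 3 held 92.4% of the covered length. The other kept peak, chr2:66552993-66558787, lay in the gene body 118 to 124 kb from the 5′ end, and a single treated peak of 140 bp shared 2.42% of its 5795 bp. The fifth treated peak, chr2:66551144-66551241, was 98 bp wide and touched no control peak. All 5 treated peaks were weak, with folds of 3.47 to 3.93 over their own library's background and −log10 q of at most 2.03.

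The lost peaks of MEIS1 ran through the gene body and the 3′ end. The widest, chr2:66560239-66575332, was 15094 bp wide with a fold of 3.64. It covered the last 13631 bp of MEIS1 and reached 1303 bp into the long non-coding RNA gene LINC01798 beyond it, so its signal cannot be given to MEIS1 alone. Next were chr2:66488673-66499597 with 10925 bp, chr2:66475491-66481793 with 6303 bp and chr2:66505239-66511356 with 6118 bp, at folds of 3.50, 3.84 and 4.20. The folds of the lost peaks ranged from 2.66 to 4.20 with a median of 2.98, and their widths from 90 to 15094 bp with a median of 417. From 11.8 to 116 kb into the gene no treated peak was found over 104254 bp, chr2:66446890-66551143. In control, 54 peaks covered 57.8% of that stretch and held 65.5% of the covered length of the gene body. In steps of 20 kb from the 5′ end, control coverage was 87.1% in the first, 70.9 to 81.2% in the next 3, 23.4% and 36.0% in the 2 after these, and 95.4% in the last. Treated coverage was 14.5% in the first step and below 1% in each of the others.

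PBX3, a DNA-binding partner of HOXA9 and MEIS1, lies on the plus strand of chromosome 9 from 125747373 to 125967377. In control, 93 peaks covered 112589 bp, 49.0% of the gene and its 5 kb, and it ranked 104 of 15634 genes. After treatment 7 peaks covered 4873 bp, or 2.12%, a length 23.1 times lower. Of the control peaks 4 were kept (4.30%, 1.69 to 10.5) and 89 were lost. On chromosome 9 as a whole 4.93% of control peaks were kept, a value inside that interval. By length PBX3 kept 4.20%, and 54.6% of the genes with control coverage had a lower kept share. The interval of PBX3 overlaps that of MEIS1, so the shares of peaks kept at the 2 genes could not be told apart by counting.

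The kept peak at the 5′ end of PBX3, chr9:125746167-125761141, was 14975 bp wide with a fold of 6.03, the strongest at the gene. The 3 treated peaks inside it covered 25.1% of its length, and one of them, chr9:125746432-125749452, was 3021 bp wide with a fold of 4.53 and spanned the annotated 5′ end. The others, chr9:125751270-125751540 and chr9:125759456-125759920, were 271 and 465 bp wide. A treated peak across the 5′ end was not found at MEIS1, where the treated peak nearest to the 5′ end began 1.95 kb into the gene. The other kept peaks lay at 20.0 to 20.5 kb (chr9:125767371-125767864, 65.0% of it covered), 21.0 to 22.4 kb (chr9:125768412-125769804, 19.3%) and 163 to 165 kb (chr9:125910664-125912292, 23.3%). A single treated peak lay in each of these, in order chr9:125767443-125767763, chr9:125769284-125769552 and chr9:125911451-125911829. Their control folds of 2.78 to 3.41 lay within the range of the lost peaks, 2.66 to 5.10. The treated peak at chr9:125963486-125963632, 147 bp wide, touched no control peak.

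The widest control peak of PBX3, chr9:125882128-125898563, was lost. It was 16436 bp wide, had a fold of 4.79, and lay 135 to 151 kb from the 5′ end. Also lost were chr9:125835222-125843425 (8204 bp, fold 4.89), chr9:125902843-125910340 (7498 bp, fold 4.24) and chr9:125761578-125765935 (4358 bp, fold 3.39). No treated peak lay from 22.2 to 164 kb into the gene, over 141898 bp at chr9:125769553-125911450, where control had 65 peaks covering 57.0% of the stretch. That stretch held 72.9% of the control length of the gene body. Control coverage in steps of 20 kb was 91.9% in the first, had further maxima of 84.1% from 80 to 100 kb and 88.7% from 140 to 160 kb, and was 6.07% from 200 to 220 kb. Treated coverage was 14.1% in the first step, 2.95% in the second, 1.90% from 160 to 180 kb, 0.735% from 200 to 220 kb and 0 in the steps between. The 3′ 5 kb and the downstream flank of PBX3 to 100 kb had no peak in either list.

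The upstream flank of PBX3 held 25 control peaks, of which 1 was kept (4.00%, 0.710 to 19.5). The kept one, chr9:125647290-125654618, was 7329 bp wide, and the treated peak chr9:125650524-125650943 shared 420 bp of it. It lies in the body of MAPKAP1, a subunit of the mTORC2 kinase complex, whose gene runs from 125437394 to 125707208. The strongest control peak of the flank, chr9:125706066-125707263, crossed the end of MAPKAP1 that faces PBX3, had a fold of 5.38 and was lost. A second treated peak of 141 bp lay next to it at chr9:125707453-125707593 and touched no control peak. The lost peak chr9:125696079-125697049 was 971 bp wide with a fold of 3.50.

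**Figure D3:**
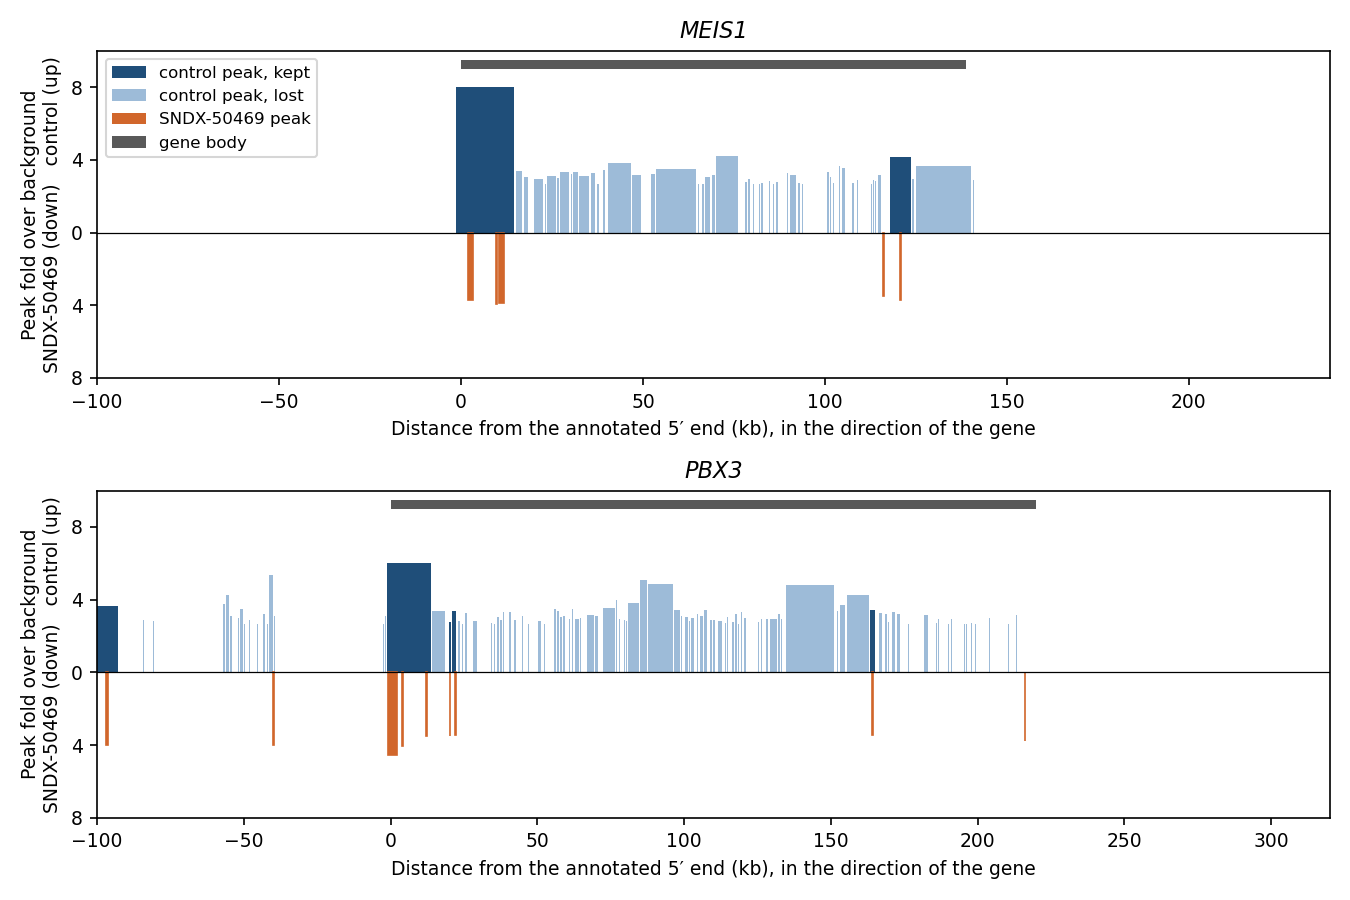
H3K27Ac peaks of MEIS1 (top) and PBX3 (bottom) with 100 kb on both sides, by distance in kb from the annotated 5′ end. Control peaks point up (dark where kept, light where lost) and SNDX-50469 peaks point down; heights are the authors' fold over each library's own background, so up and down heights are not on a shared scale. Of the treated peaks in the gene and 5 kb, 3 of 5 at MEIS1 and 5 of 7 at PBX3 lie within 25 kb of the 5′ end, and no treated peak lies from 11.8 to 116 kb at MEIS1 or from 22.2 to 164 kb at PBX3.

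How many peaks of both genes were kept depended on the cutoff of the lists. With the higher of the 2 smallest −log10 p applied to both lists, 2 of 11 control peaks were kept at MEIS1 (18.2%) and 2 of 14 at PBX3 (14.3%), and with both lists of equal covered length only the 5′ peak of MEIS1 remained among control peaks of the 2 genes. By length, the kept share of MEIS1 was then 18.2% in place of 3.19%, and with a −log10 q of at least 2 in both lists it was 0.388%. When a control peak had to be covered over at least 50% of its length, 0 of 58 were kept at MEIS1 and 1 of 93 at PBX3 (1.08%).

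PBX2, a broadly expressed PBX protein, lies in the gene-dense class III region of the MHC on the minus strand of chromosome 6 from 32184733 to 32190202. It had the highest kept share of the family in the gene body and 5 kb. In control 4 peaks covered 12695 bp, 82.1% of the gene and its 5 kb, and after treatment 8 peaks covered 6366 bp, 41.2%. All 4 control peaks were kept (51.0 to 100%), and 49.9% of the covered length. The window, however, is shared with other genes. Its strongest control peak, chr6:32190285-32195596, ended 83 bp before the 5′ end of PBX2 without touching the gene, and ranked 17 of 245875 by fold (14.6). It spanned all 4758 bp of GPSM3, a regulator of G-protein signalling in leukocytes, and reached 754 bp into NOTCH4. The strongest treated peak there, chr6:32190248-32194362, had a fold of 5.78, covered 75.6% of GPSM3 and also ended outside PBX2. Signal of PBX2 and GPSM3 at this place cannot be told apart in these lists.

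Over the PBX2 gene body alone, control peaks covered 3554 bp and treated peaks 869 bp, with a kept share of 24.5%. There the control peak chr6:32186445-32189924, from 0.278 to 3.76 kb past the 5′ end with a fold of 7.74, kept 23.7% of its 3480 bp under the treated peaks chr6:32188969-32189648 and chr6:32186778-32186922. The control peak at chr6:32180995-32184806, which crosses the 3′ end, kept 26.5% of its 3812 bp. Past the 3′ end, on the side of AGPAT1, the control peak chr6:32178646-32180217 with a fold of 6.45 kept 80.2% of its 1572 bp under treated peak chr6:32178756-32180016. Within 100 kb of PBX2 lie 11 other protein-coding genes. In its flanks from 5 to 100 kb, 28869 bp in control and 4741 bp after treatment left a kept share of 10.9%. On chromosome 6, 49.2% of treated peaks touched no control peak, against 30.1% on chromosome 2 and 19.2 to 22.5% on chromosomes 9, 11, 15, 19 and 21. The part of this in the values of PBX2 was not tested, and within its gene and 5 kb no treated peak was without a control peak.

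PBX4, a PBX gene best known from testis, lies on the minus strand of chromosome 19 from 19561713 to 19618687. In control 15 peaks covered 4236 bp, 6.32% of its window. The strongest, chr19:19595850-19595938 in the gene body, had a fold of 3.59 and was lost. After treatment 1 peak of 99 bp was left upstream of the gene, chr19:19621184-19621282, and it touched no control peak, so that 0% of the covered length was kept. By number 1 control peak was kept, chr19:19623671-19624405, but it reached into the window at its edge only, lies over the end of LPAR2 that faces PBX4, and met the treated peak outside the window. No treated peak lay in the 56975 bp of the gene.

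Of the PKNOX genes, which encode MEIS-like partners of PBX proteins, PKNOX1 lies on the plus strand of chromosome 21 from 42974562 to 43033931. In control 8 peaks covered 4031 bp, and after treatment 1 peak covered 1280 bp, with 29.3% of the control length kept. The kept peak, chr21:42974646-42976870, had a fold of 5.80 and lay 0.084 to 2.31 kb past the 5′ end. The treated peak, chr21:42974546-42975825, had a fold of 5.74 and a −log10 q of 5.24, and covered 53.0% of it. With a −log10 q of at least 5 asked of both lists, treated peaks were left at PKNOX1 and PBX2 and at no other member. The 7 lost peaks of PKNOX1 were at most 551 bp wide. PKNOX2, on the plus strand of chromosome 11 from 125164751 to 125433389, had almost no H3K27Ac. There 4 control peaks covered 625 bp, 0.224% of its window. The strongest, chr11:125359550-125359675, had a fold of 3.17, and 0 peaks were listed after treatment.

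MEIS2, a developmental MEIS gene, lies on the minus strand of chromosome 15 from 36889204 to 37101311. In control 6 peaks covered 4570 bp and after treatment 3 peaks covered 1045 bp, with 11.4% kept (3.64% with a −log10 q of at least 2 in both lists, 0% with peaks of at least 500 bp). Its 1 kept peak, chr15:37098059-37101657, was 3599 bp wide with a fold of 4.72 and spanned the 5′ end. The 2 treated peaks inside it covered 14.5% of its length and lay 0.083 to 0.474 kb and 0.928 to 1.06 kb into the gene, nearer to the outermost 5′ end than both promoter windows of this gene. The other treated peak, chr15:36892673-36893194, lay near the 3′ end and touched no control peak, and a stretch of 207058 bp between was without treated peaks. Control coverage of that stretch was 1.53%, so unlike at MEIS1 and PBX3 there was little to lose. MEIS3, on the minus strand of chromosome 19 from 47403124 to 47422233, had a single control peak of 316 bp at the lowest fold of the list, 2.66, past its 3′ end, and none after treatment. It had no peak inside the gene in either library.

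**Figure D4:**
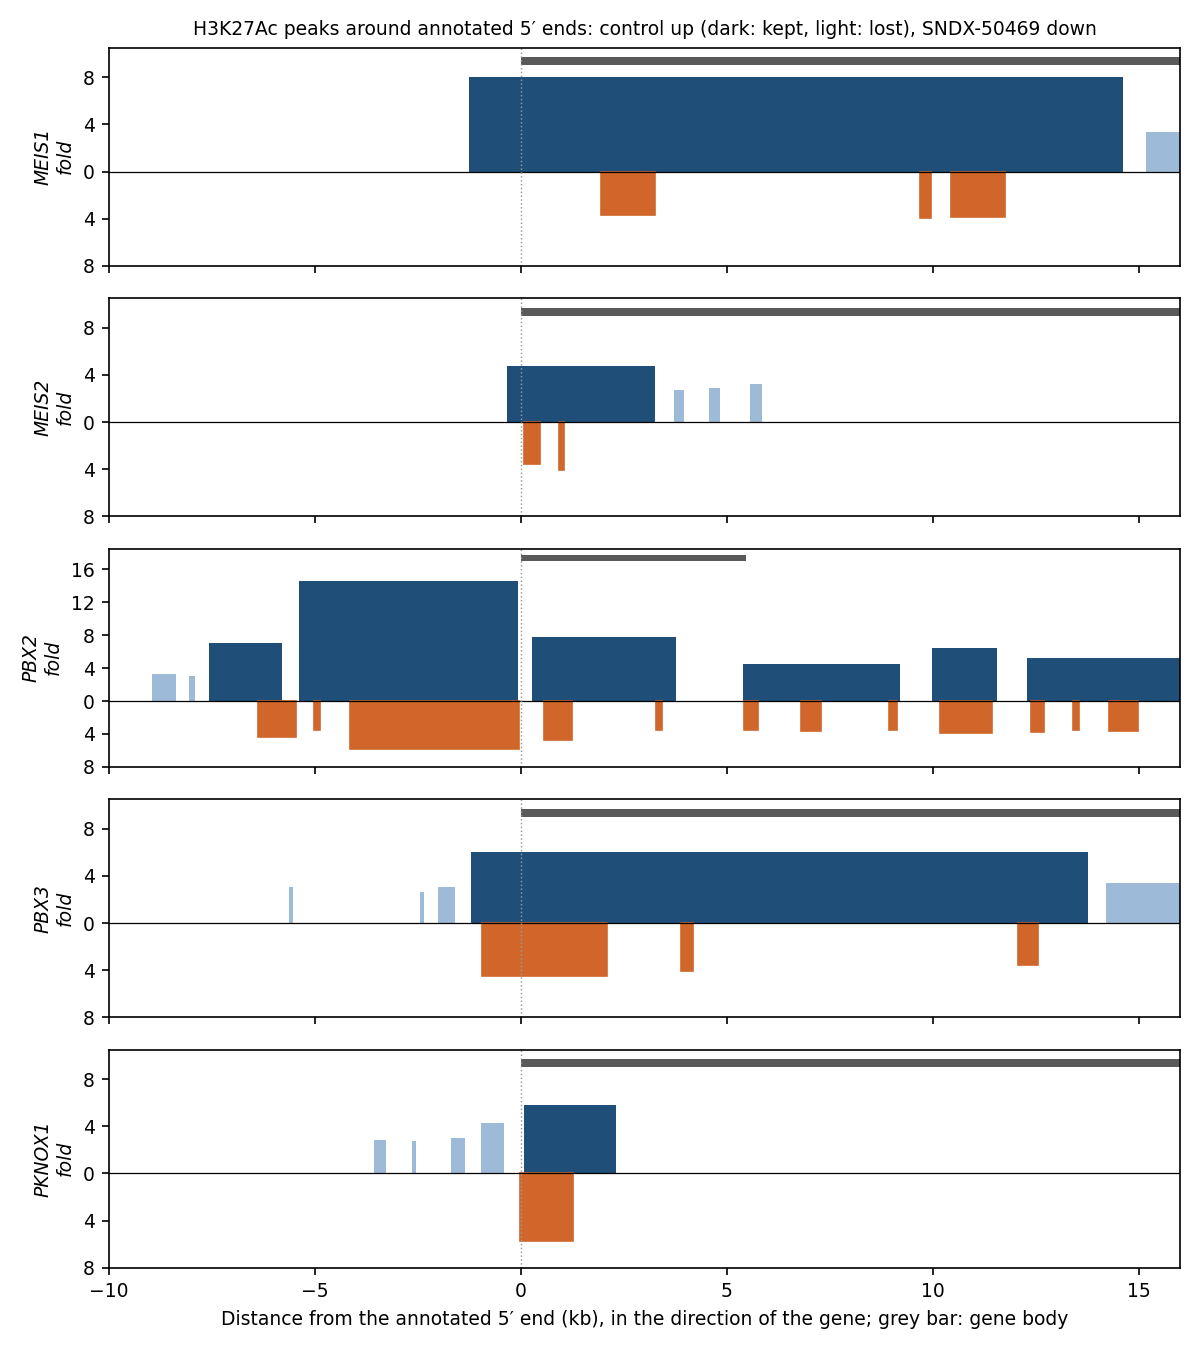
Peaks from 10 kb before to 16 kb after the annotated 5′ ends of MEIS1, MEIS2, PBX2, PBX3 and PKNOX1, with control up (dark where kept, light where lost), SNDX-50469 down and the gene body as a grey bar; heights are fold over each library's own background. Treated peaks span the 5′ end at PBX3 and PKNOX1, begin 1.95 kb inside MEIS1, and at PBX2 the widest one lies upstream over GPSM3.

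With the positions divided at 5 kb from the outermost 5′ end, the kept share near the 5′ end was 60.0% at PBX2, 49.0% at PBX3, 33.6% at PKNOX1, 20.9% at MEIS1, 12.8% at MEIS2 and 0% at PBX4. MEIS3 and PKNOX2 had no control coverage there. Farther from the 5′ end, within the same window, the share was 30.1% at PBX2, 1.94% at MEIS1, 1.35% at PBX3 and 0% at the other 5 members. In each of the 5 members with kept positions the share was higher near the 5′ end. The least data were at MEIS2 and PKNOX1, where the rest held 489 and 518 bp. At PBX2 the direction rests on the upstream peak over GPSM3, which does not touch PBX2. The control peak inside PBX2 near its 5′ end kept 23.7%, below the 30.1% of the rest. Of 6056 protein-coding genes with control coverage in both places and kept positions, 73.2% had the higher share near the 5′ end, so this direction was common and is not particular to the family. Over 12506 genes with a strand in the promoter table, the kept shares were 20.1% near the 5′ end and 6.67% elsewhere.

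At 100 kb the windows of the members take in their neighbours. All 8 members were called at least 2 times lower there, against 96.4% of 18602 genes, and 6 of 8 at least 4 times lower, against 86.6%. None had lost all control positions, which 22.3% of genes had. The kept share of the summed control length of 492464 bp was 8.77%, against 11.8% over all genes, while the median over members was 9.41%, against 6.76%, so again no direction relative to other genes follows. By member the share ran from 3.98% at PBX3 to 34.0% at PKNOX1. The order of control lengths changed: MEIS3, PBX4 and PKNOX2, with 316, 4236 and 625 bp at 5 kb, had 65935, 71355 and 71266 bp at 100 kb, and MEIS1 stayed at 95092 bp. Flanking peaks therefore made up most of the signal at these 3 members, which had little of their own. They also made up most of it at PBX2 (28869 of 41564 bp) and PKNOX1 (7205 of 11236 bp).

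In the flanks from 5 to 100 kb, 41 treated peaks touched a control peak, and 39 of them overlapped a neighbouring protein-coding gene. The other 2 lay downstream of PKNOX2 inside its strongest flanking control peak, chr11:125507716-125522967. That peak was 15252 bp wide with a fold of 8.26, kept 12.2% of its length and overlapped no protein-coding gene. Upstream of PKNOX2, the widest treated peak of any member's surroundings, 6968 bp at chr11:125068889-125075856 with a fold of 5.27, lay in SLC37A2, a sugar phosphate transporter gene that kept 43.9% of 22858 bp. Upstream of PKNOX1, WDR4 (a subunit of a tRNA methyltransferase) kept 49.1% and NDUFV3 (a subunit of respiratory complex I) kept 43.1%, and these hold both treated peaks of that flank that touched control peaks. Around PBX4, 9 protein-coding genes overlapped such a treated peak, among them ATP13A1 with 32.6%, GMIP with 26.0% and ZNF101 with 51.4% of their own control length kept. Around MEIS3 there were 4, C5AR2, DHX34, KPTN and NAPA, with 1.70 to 22.9% kept. Around PBX2 there were ATF6B, PPT2, AGPAT1 and NOTCH4, with 1.37 to 59.3% kept. At PBX3 the only one was MAPKAP1 with 1.39%, and at MEIS1 and MEIS2 there was none.

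Other TALE homeodomain genes were taken as a list of 9. TGIF1, TGIF2, IRX3 and IRX5 had control coverage, and IRX1, IRX2, IRX4, IRX6 and MKX had none in either library. Called at least 2 times lower were 2 of the 4, against 93.7% of all genes, TGIF2 (12770 to 1720 bp, 13.5% kept) and IRX3 (9054 to 3100 bp, 34.2%). TGIF1, a transcriptional repressor, went from 9480 to 5419 bp and kept 57.2%, and IRX5 went from 5281 to 4123 bp and kept 72.0%. Among 4 partner genes, 1 was called lower by the same rule, against the same 93.7%, PBXIP1, whose protein binds PBX proteins and restrains their DNA binding, from 10349 to 109 bp with 0% kept. HOXA9, the HOX partner of MEIS1 and PBX3 in these cells, was covered over 8297 bp in control and 7390 bp after treatment, with 86.9% kept. HOXA10 went from 15387 to 9513 bp with 61.8% kept, and HOXA7 had 110 bp in control and 339 bp after treatment with none shared. In these 2 libraries the kept share at HOXA9 was thus 86.9%, beside 3.19% at its cofactor MEIS1 and 4.20% at PBX3. The median over all genes with control coverage was 2.37%. Of those genes, 52.1% kept a lower share than MEIS1 and 54.6% a lower share than PBX3, so the 2 cofactors were not low among genes. With other cutoffs of the lists MEIS1 had 0.388 to 18.2%, apart from 0% at a −log10 q of at least 5. PBX3 had 3.03 to 6.4%, apart from 0% at that same cutoff and no control peak left in lists of equal covered length. HOXA9 was not recomputed with other cutoffs. Its gene runs from 27162438 to 27165537, so most of its window lies near its 5′ end, unlike those of MEIS1 and PBX3. Within 5 kb of their own 5′ ends, MEIS1 kept 20.9% and PBX3 kept 49.0%.

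The genes whose pattern was most like that of MEIS1, by the distance of log2 covered length (with 1 bp added) in the 2 libraries, were PDE4D (96451 to 2923 bp), ARHGEF3 (87243 to 2797 bp) and VWA8 (96243 to 3637 bp), at distances of 0.10, 0.20 and 0.22 on the log2 scale. For PBX3 they were ARMC2 (111338 to 5054 bp), UBASH3B (96559 to 4849 bp) and IPCEF1 (128701 to 5407 bp), at distances of 0.06, 0.22 and 0.24. These rest on 2 values a gene.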

How the data were processed

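H3K27Ac was measured in 1 control and 1 SNDX-50469 library of MOLM13 cells. The submitters' processing notes name Trim Galore 0.6.5, Bowtie2 2.3.4.2, Picard 2.9.0, MACS2 2.1.2 and GRCh38, without options, while the supplementary methods name TopHat2 with hg38. Whether an input library entered the peak calling is not given in the sources used here. The authors deposited for each peak its position, a ratio (fold over background averaged over the peak), a −log10 p, a −log10 q, and a score that is 10 times the −log10 q without decimals and was not used. These values are relative to each library's own background, so between libraries positions were compared, except where the same cutoff was put on both lists.

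Covered length and shared length were computed with Python 3.11.15, numpy 2.4.6, pandas 2.3.3 and scipy 1.17.1, and figures were drawn with matplotlib 3.10.9. The calculation was tested on simulated data. Genes were the protein-coding genes of GRCh38.p14, the build of hg38. No exon annotation of this build was used, so peaks are placed in gene bodies and not in introns or exons. Promoter sequences are from RefSeq, with 9 windows for 7 of the 8 members. PKNOX2 had no entry.

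Depth is unknown, and the inferred background level is only an indirect measure of it, which limits the precision at weak peaks. The members and lists were chosen with earlier results of these data known. Named peaks are all treated peaks of MEIS1 and PBX3 within 100 kb, their 5 widest control peaks within 5 kb and the 3 widest of each flank, the kept peaks of both genes, and for other members the strongest control peak and the kept control peaks within 5 kb. Of the cell type markers chosen, 1 is not reported here. Named neighbours are protein-coding genes that overlap a treated flanking peak touching a control peak. Values for a cutoff of −log10 q of 2 or 5, a common −log10 p, equal covered length, peaks of at least 500 bp, other flanks, at least 4 times lower and coverage of at least 50% of a peak are in the closing section.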

Additional observations from a re-analysis of the deposited data

How the results depend on the processing

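No paired analysis was possible because neither condition has a second library, and no library could be left out. Of 44 recomputed values for the family, 25 stayed within 1.5 times (counts and the median) or within the counting interval (shares), and 19 moved. Whether a value changed direction relative to all genes was not scored. With a −log10 q of at least 5 in both lists, 3 of 4 members with control coverage were called lower at 5 kb, against 93.8% of genes, the summed kept share was 11.9% at 5 kb and 4.08% at 100 kb, the median over members was 23.0%, and 0% of control peaks were kept at MEIS1 (of 1) and 0% at PBX3 (of 2). With the higher of the smallest −log10 p (3.93) in both lists, 4 of 6 members were called lower at 5 kb, against 83.5% of genes, the summed kept share at 100 kb was 13.3%, the median over members was 10.5%, and the kept share of peaks was 18.2% at MEIS1 and 14.3% at PBX3. With the control list trimmed to the treated covered length, 1 of 2 members was called lower at 5 kb and 2 of 5 at 100 kb, against 38.3% and 26.4% of genes. The summed kept shares were then 33.1% and 34.3%, the median over members was 39.0%, 100% of the control peaks of MEIS1 (1 of 1) were kept, and no value could be had for PBX3, which had no control peak left. When coverage of at least 50% of a control peak was asked, 0% were kept at MEIS1 and 1.08% at PBX3. These steps leave fewer control peaks or set a stricter overlap by construction. The shares of genes given for them are over the genes with control coverage left in each. A −log10 q of at least 2, peaks of at least 500 bp, other flanks and the call at 4 times moved none of these values beyond those limits. Intervals for kept shares of length took the number of control peaks as trials, so they were wide with few peaks (0 to 79.3% at MEIS3, with 1). For single members, 34 of 39 recomputed kept shares of length stayed within their counting interval, which says little where peaks were few. The exceptions were MEIS1 (3.19%) at 0.388%, 0% and 18.2% with a −log10 q of at least 2, of at least 5 and the trimmed list, PBX3 (4.20%) at 0% with a −log10 q of at least 5, and MEIS2 (11.4%) at 0% with peaks of at least 500 bp. The lists hold no read counts, so weak peaks lost to lower depth and peaks lost to lower acetylation cannot be told apart.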
